A study of Mus musculus with 4 samples.

Results

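The genes described here are 9 members of the matrix metalloprotease and plasminogen activator system: the secreted proteases Mmp3, Mmp9, Mmp10 and Mmp13, the membrane-type protease Mmp14, urokinase (Plau) and its receptor (Plaur), and the tissue inhibitors Timp1 and Timp2. They were chosen by name, as 9 of the 32285 genes in each of 4 single-cell count matrices, and all 9 were found in every matrix. The cells came from adult mouse back epidermis and were of 2 genotypes. Control mice were DNp63fl/fl. Experimental mice were DNp63fl/fl;K14-CreT2, in which tamoxifen-activated Cre under the keratin 14 promoter removes the ΔNp63 isoforms of Trp63 in basal keratinocytes. Mice of both genotypes received 200 mg/kg tamoxifen by oral gavage on each of 5 days, and the epidermis was taken either 1 day or 1 week after ablation and digested in 0.25% trypsin, at 4 °C or 37 °C. Ages ran from 2 to 17 months, with males and females. Each genotype and time point is 1 library, and the labels do not say how many animals, which ages and sexes or which digestion went into it. The kits differed between the time points (3′ chemistry at 1 day, 5′ at 1 week), so comparisons were made only between libraries of the same time point.

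Matrix metalloproteases are zinc proteases made as inactive precursors. Stromelysins (Mmp3 and Mmp10) cut proteoglycans, laminins and other proteases' precursors, Mmp13 is a fibrillar collagenase, Mmp9 a gelatinase, and Mmp14 cuts collagen at the cell surface and activates other proteases there. Urokinase, bound to its receptor Plaur, turns plasminogen into plasmin, which degrades fibrin and activates protease precursors, and the Timp proteins bind and block the metalloproteases. In skin wounds, keratinocytes at the wound edge are known to make Mmp10, urokinase and its receptor, while Mmp3 and Mmp13 are known from keratinocytes behind or at the edge and from dermal fibroblasts.

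Promoter sequences are shown for the members that share the AP-1 motif, because stromelysin, collagenase and urokinase receptor genes are textbook examples of AP-1 control. Of the 9 members, 7 had an entry in the RefSeq promoter table (build GRCm38.p6), Mmp9 and Plau being the others. The AP-1 letters TGANTCA, searched on both strands of the 250 bases before the start, were found in 4 of these 7 members and in 6.87% of 27025 mouse promoters of the same length. The letters AGGAAG of the PEA3 motif, searched in the same way, were found in 5 of 7 members (Mmp3, Mmp13, Mmp14, Plaur and Timp1) and in 29.2% of all promoters, and 3 members held both motifs. The share of all promoters with both was not computed. The 4 AP-1 members follow 5′ to 3′ on the plus strand, at chr9:7445572-7445821 (Mmp3), chr9:7502092-7502341 (Mmp10), chr9:7272264-7272513 (Mmp13) and chr7:24462233-24462482 (Plaur), with AP-1 and PEA3 matches in capitals.
Mmp3: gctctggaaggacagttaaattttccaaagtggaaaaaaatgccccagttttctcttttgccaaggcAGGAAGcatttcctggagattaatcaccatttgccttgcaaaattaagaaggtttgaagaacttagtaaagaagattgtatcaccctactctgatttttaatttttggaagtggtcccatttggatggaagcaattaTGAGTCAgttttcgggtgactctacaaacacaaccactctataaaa
Mmp10: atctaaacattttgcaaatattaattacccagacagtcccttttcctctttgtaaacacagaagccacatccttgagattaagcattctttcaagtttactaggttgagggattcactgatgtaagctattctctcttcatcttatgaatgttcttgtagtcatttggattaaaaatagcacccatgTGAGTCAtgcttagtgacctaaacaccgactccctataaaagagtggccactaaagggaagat
Mmp13: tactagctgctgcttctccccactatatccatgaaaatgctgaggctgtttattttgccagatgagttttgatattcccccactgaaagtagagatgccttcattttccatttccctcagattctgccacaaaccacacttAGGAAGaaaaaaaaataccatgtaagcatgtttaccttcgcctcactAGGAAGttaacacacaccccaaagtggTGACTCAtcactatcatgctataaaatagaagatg
Plaur: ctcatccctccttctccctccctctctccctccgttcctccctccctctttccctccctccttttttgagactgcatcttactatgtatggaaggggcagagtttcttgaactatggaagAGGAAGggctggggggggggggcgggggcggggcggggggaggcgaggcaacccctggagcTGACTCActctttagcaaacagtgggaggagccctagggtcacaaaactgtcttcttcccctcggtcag
The AP-1 match ended 40 bases before the start in Mmp3, 57 in Mmp10, 29 in Mmp13 and 63 in Plaur. The letters were TGAGTCA in Mmp3 and Mmp10 and TGACTCA in Mmp13 and Plaur. A match describes the letters only.

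In the GRCm38 annotation, Mmp13 (chromosome 9, 7272514 to 7283331), Mmp3 (7445822 to 7455975) and Mmp10 (7502352 to 7510240) lie on the plus strand of one gene cluster. Mmp3 and Mmp10 are 46.376 kb apart with no protein-coding gene between them. The remaining members are dispersed: Mmp9 on chromosome 2 (164940780 to 164955850), Mmp14 (54431612 to 54445364) and Plau (20836660 to 20843385) on chromosome 14, Plaur on chromosome 7 (24462484 to 24475968), Timp1 on chromosome X (20870166 to 20874735) and Timp2 on chromosome 11 (118301069 to 118355740). Timp1 lies inside Syn1 on the opposite strand, and Timp2 overlaps Cep295nl on the same strand, so reads in the Timp2 overlap are uncertain.

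After filtering, the 4 libraries held 15626 to 23651 cells and 58319906 to 111367116 gene UMIs (unique molecular identifiers, counts of captured transcripts). The lowest UMI count of a barcode was 500 in both control libraries and 1368 and 1059 in the experimental libraries of 1 day and 1 week. The 1-day libraries had 262 passing barcodes in common and the 1-week libraries 657, against 9 to 18 for libraries of different time points. Trp63, whose count covers every isoform, was at 407 and 134 CPM (UMIs of the gene scaled to a fixed total per sum of cells) in control and experimental keratinocytes at 1 day, and at 435 and 139 CPM at 1 week. Keratinocyte clusters were named from marker genes as basal-like, suprabasal-like, granular-like, hair follicle-like and sebaceous-like, and epithelial clusters with at least 1000 CPM of the simple-epithelium keratin Krt8 were kept apart as Krt8-high. The members were left out of the genes used for clustering. With 1 library per group no test of genotype is possible: intervals are exact 95% intervals for counting error only, and a member is called higher or lower where it is past 2-fold with at least 20 UMIs in the sums of both libraries. PCR and droplet effects, animals and digestion cannot be told apart from genotype.

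At 1 day, Mmp3 and Mmp13 were lower, and Mmp10, Plau and Timp1 higher, in experimental keratinocytes. Thus of 9 members 3 were higher and 2 lower, where 7.52% of the 14727 genes with enough UMIs were higher and 2.82% lower. The median log2 ratio of the members, experimental over control, was 0.27 against 0.02 for those genes. In these sums the 3 genes of the chromosome 9 cluster did not share a direction, and the Mmp10 value depends on background as described below. With the Krt8-high cells counted as keratinocytes, Mmp3 was at -1.25 and Mmp13 at -0.80. Without doublet removal they were at -0.51 and -0.34. That setting gave no Krt8-high class, and its control keratinocytes numbered 15258, of which 1639 were basal-like, in place of 19740 and 7833. The sums cover 19740 control and 16062 experimental keratinocytes without the Krt8-high cells. Basal-like cells, which held most of the control Mmp3 and Mmp13 UMIs, were 7833 and 2716 of these. The part of cell numbers in the lower sums was not tested. Both genes were also lower within basal-like cells, as given below. Over all passing cells, Krt8-high cells included, 4 of 9 members were higher (Mmp10, Plau, Plaur and Timp1) and Mmp3 lower, against 5.36% and 4.47% of genes.

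Mmp3 went from 5437 UMIs (52.6 CPM) in control to 776 UMIs (11.4 CPM) in experimental keratinocytes, a log2 ratio of -2.21 (-2.32 to -2.10). Mmp13 went from 466 to 110 UMIs (4.51 to 1.61 CPM), a log2 ratio of -1.48 (-1.80 to -1.18). Over the cells of the 3 hashtags in each library, whose meaning the labels do not give and whose cells are not replicates, Mmp13 was at 6.95, 1.98 and 4.83 CPM in control and at 2.15, 0.877 and 0.482 CPM in experimental keratinocytes, and the ranges overlapped. For Mmp10, 792 UMIs (7.66 CPM) stood against 1174 (17.2 CPM), a log2 ratio of 1.17 (1.04 to 1.30). Both stromelysins were therefore above the count minimum in each library, with opposite direction in these sums. With the Krt8-high profile taken out in proportion to Krt8, a step described below, the Mmp10 log2 ratio was 0.15, within 2-fold. Mmp9 was rare in keratinocytes, at 54 and 23 UMIs (0.522 and 0.337 CPM), and 26 of the 54 came from 1 control basal-like cell that also held 67 Mmp13 UMIs. Without the top cell of each library the Mmp9 log2 ratio was 0.25 in place of -0.63. Mmp14 was at 29.7 and 18.6 CPM, a log2 ratio of -0.67 that stayed within 2-fold.

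On the plasminogen side, Plau went from 430 UMIs (4.16 CPM) to 898 UMIs (13.2 CPM), a log2 ratio of 1.66 (1.5 to 1.83). Its receptor Plaur was at 7.72 and 13.8 CPM, a log2 ratio of 0.84, within 2-fold. Of the inhibitors, Timp1 went from 84 UMIs (0.812 CPM) to 346 UMIs (5.07 CPM), a log2 ratio of 2.64 (2.30 to 3.0). Over the cells of the 3 hashtags in each library it ranged from 0.338 to 1.34 CPM in control and from 1.81 to 6.93 CPM in experimental keratinocytes. Timp2 was at 35.7 and 42.9 CPM, within 2-fold. The ligand was past 2-fold and the receptor was not, and likewise for Timp1 and Timp2. With the Krt8-high profile taken out, Plau was within 2-fold too, at 0.43.

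**Figure D1:**
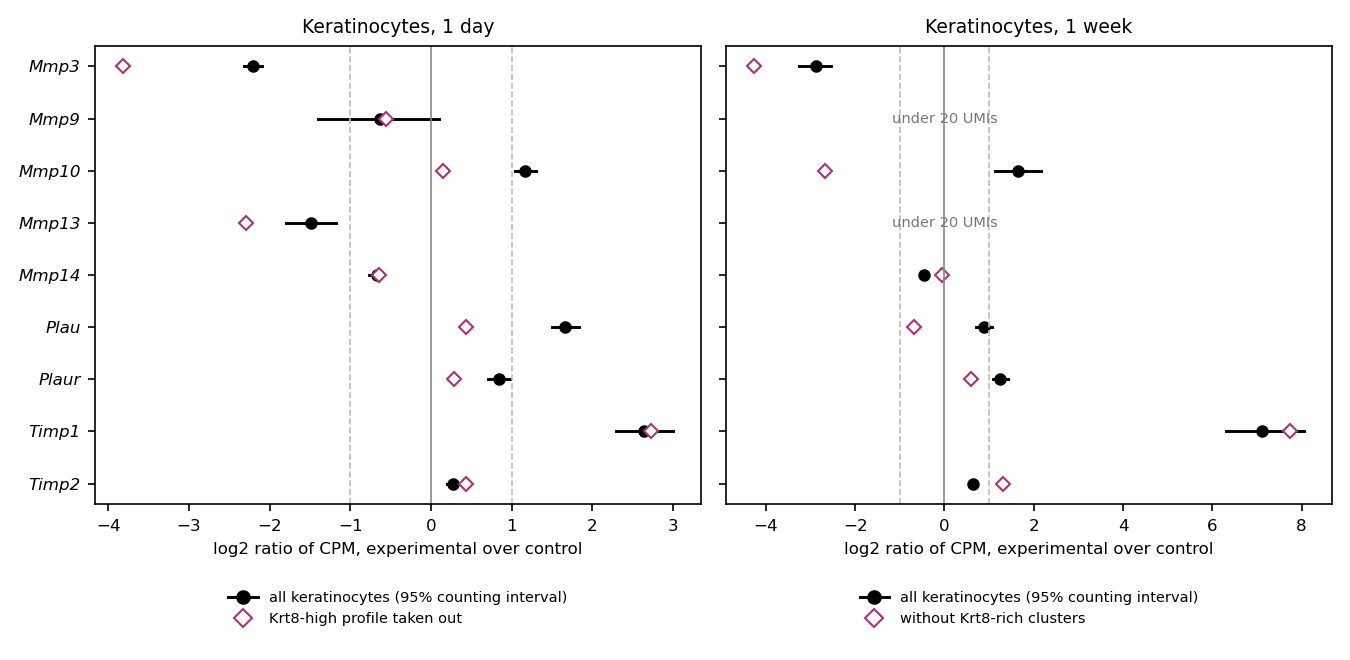
Log2 ratio of CPM, experimental over control, of each member in keratinocytes at 1 day and 1 week. Dots are the sums of UMIs with 95% counting intervals, diamonds the ratio after the Krt8-high profile was taken out (1 day) or without Krt8-rich clusters (1 week), and dashed lines mark 2-fold; Timp1 lies at 2.64 and 7.11, and Mmp3 at -2.21 and -2.89.

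The keratinocyte classes differed in which members stood apart. In control skin the basal-like cells held 88.3% of the Mmp3 UMIs, 80.7% of Mmp10, 72.9% of Mmp13, 66.8% of Plaur, 57.8% of Mmp14 and 54.2% of Plau in the library. Hair follicle-like cells held 55.9% of Timp2, and immune classes 51.5% of Mmp9. In the experimental library the Krt8-high cells, 5377 of 23651 cells, held 57.4% of Mmp3 UMIs (1194 of 2080), 54.2% of Plau (1219 of 2248), 52.2% of Mmp10 (1451 of 2781), 47.6% of Mmp13 and 41.8% of Plaur. They held 18.5% of Mmp14, 13.1% of Timp1, 6.61% of Timp2 and 3.85% of Mmp9. The control library had 14 Krt8-high cells. The size of the class depended on the clustering: 5714 experimental cells at Leiden resolution 0.5, 1422 at resolution 2, and none when doublets were not removed.

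Among basal-like cells, 7833 in control and 2716 in experimental, 2 of 9 members were higher (Plau and Timp1) and 3 lower (Mmp3, Mmp9 and Mmp13), against 8.02% and 2.42% of all genes counted. Mmp3 was at 126 CPM in control and 31.3 in experimental basal-like cells, a log2 ratio of -2.01, and Mmp13 at 9.86 and 2.8 CPM, a log2 ratio of -1.82. Mmp9 had 38 and 2 UMIs, but 26 of the 38 lay in 1 control cell, and without it the gene is under the minimum of 20 UMIs and leaves Mmp3 and Mmp13 as the lower members. Plau was at 6.25 and 13.8 CPM (log2 ratio 1.14) and Timp1 at 0.534 and 3.44 CPM (log2 ratio 2.69). The cycling cluster described below held 115 of the 172 experimental Plau UMIs and 34 of the 43 of Timp1. In the other 2 clusters of the class Plau was at 8.76 and 16.7 CPM (log2 ratio 0.93) and at 1.96 and 4.89 CPM (1.32), and Timp1 had too few UMIs to count. Mmp10 (17.3 and 22.8 CPM), Plaur (15.6 and 22.9), Mmp14 (49.7 and 36.7) and Timp2 (13.4 and 26.7) stayed within 2-fold. The lower Mmp3 was present in each of the 3 clusters of the class: 172 and 68.5 CPM in the largest control cluster, 19 and 7.34 in the next, and 154 and 45.6 in the cycling one.

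The cycling basal-like cluster held similar numbers of cells in both libraries, 823 and 914. Its Krt8 was at 1.91 CPM in control and 980 CPM in experimental cells, and the part of this in the member values was not tested. Its Plau went from 5.26 to 22.8 CPM (log2 ratio 2.12) and its Plaur from 16.3 to 33.3 CPM. Timp1 went from 0.956 to 6.75 CPM (log2 ratio 2.82), and Mmp10 from 23 to 38.5 CPM.

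Suprabasal-like cells were filled by different clusters in the 2 libraries. A cluster led by Mt4 and Krt1 held 3828 control and 367 experimental cells. One led by Slpi, by Sprr2 genes such as Sprr2e and by Lce3d, which belong to the cornified envelope, held 9 and 4262, with no suprabasal keratin among its 10 leading genes. Within the Mt4 and Krt1 cluster, Plau was at 4.42 and 23.2 CPM (110 and 31 UMIs, log2 ratio 2.39, 1.77 to 2.98) and Plaur at 1.69 and 5.99 (42 and 8 UMIs, 1.83, 0.53 to 2.94). Mmp10, at 2.57 and 5.99 CPM (64 and 8 UMIs), and Timp2, at 1.85 and 4.49 (46 and 6 UMIs), were past 2-fold with intervals that included 0 on the log2 scale. Timp1 had 1 and 0 UMIs there, and Mmp3 (12.2 and 8.24 CPM), Mmp13 (1.32 and 2.25) and Mmp14 (6.78 and 8.99) stayed within 2-fold.

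Over the class as a whole, which sets mostly the one cluster against the other, 5 of 8 counted members were higher and none lower (10.8% and 7.66% of genes). Mmp10 was at 2.57 and 24.8 CPM (log2 ratio 3.27), Plaur at 1.72 and 13.5 (2.96), Plau at 4.41 and 17.5 (1.99), Timp2 at 1.84 and 9.14 (2.31), and Timp1 had 1 and 135 UMIs (7.06). Mmp3 (12.2 and 8.03 CPM), Mmp13 (1.32 and 1.7) and Mmp14 (6.77 and 3.56) stayed within 2-fold. Cluster and genotype cannot be told apart in these values.

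Granular-like cells numbered 286 and 3136, and 2270 of the experimental ones lay in a cluster led by Ulk4, mt-Nd6 and Flg. That cluster had a median of 2103 UMIs, 77.1% of its barcodes were close to the profile of the poorest barcodes, and its Krt8 was at 417 CPM. The part of these in the values was not tested. Of 8 counted members 4 were higher and 1 lower (17.8% and 3.49% of genes). Plau was at 2.5 and 17.3 CPM, Mmp10 at 4 and 16.3, Plaur at 4.5 and 13.9, and Timp2 at 11 and 33.6. Within that cluster, which held 104 control cells, Plau (4 and 146 UMIs, 12.6 and 25.2 CPM) was past 2-fold with an interval that included 0 on the log2 scale, and Mmp10, Plaur and Timp2 were within 2-fold. Timp1 was the lower member, at 15 and 5.27 CPM, and so went against its direction in the basal-like, suprabasal-like and hair follicle-like classes. The call did not hold without the top cell of each library, when 17 and 46 UMIs were left (8.54 and 4.58 CPM, log2 ratio -0.90), within 2-fold.

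In hair follicle-like cells, 4824 and 3581, 3 of 8 counted members were higher and 1 lower, where 2.69% of genes were higher and 1.28% lower. Timp1 was at 0.618 and 6.19 CPM (log2 ratio 3.32), Mmp10 at 0.928 and 3.65 (1.98) and Plaur at 4.51 and 9.33 (1.05), while Mmp13 was at 1.42 and 0.424 (-1.75). Timp2, at 145 and 124 CPM, Mmp14, at 35.3 and 29.1, Mmp3, at 4.58 and 5, and Plau, at 2.97 and 4.75, stayed within 2-fold. In the cluster with the bulge stem cell genes Krt24, Cd34 and Lgr5, Timp2 was at 261 and 246 CPM and Mmp14 at 68.2 and 64.4, while Timp1 had 3 and 48 UMIs (0.555 and 14 CPM, log2 ratio 4.66). One of the 3 hashtags of the experimental library had no Timp1 UMI in its 273 hair follicle-like cells, and the others had 9.53 and 12.5 CPM. The 2 inhibitors thus differed in direction of call within one follicle population, Timp1 being past 2-fold and Timp2 not.

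Keratinocytes with no class name, 2376 and 1468, had 6 of 7 counted members higher and none lower, against 9.82% and 1.74% of genes. Plau (1.09 and 6.86 CPM), Mmp10 (0.977 and 6.04), Timp1 (1.09 and 6.53), Plaur (2.07 and 7.35), Mmp14 (12.5 and 28.6) and Timp2 (38.9 and 80.5) were the higher ones, and Mmp3 was at 4.77 and 3.76 CPM. The class pools 3 clusters, of 1060 and 532, 632 and 542, and 684 and 394 cells. Their median depths were 9226, 2621 and 2322 UMIs, and the part of their mix in these values was not tested. Among sebaceous-like cells, 584 and 532, Mmp10 was higher (7 and 19 UMIs) and Mmp3 lower (22 and 4 UMIs), where 6.62% and 2.19% of genes were higher and lower.

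Levels of Timp2 and Mmp14 were also ordered across all classes. For Timp2 in the 1-day control library, fibroblast-like cells were highest among classes with over 100 cells, at 318 CPM (282 to 358), followed by melanocyte-like cells at 219 (165 to 285) and hair follicle-like cells at 145 (139 to 151). Then came keratinocytes with no class name at 38.9 (36.0 to 41.9), T cells at 34.8 (25.6 to 46.1), Langerhans cells at 28.1 (18.7 to 40.7), sebaceous-like cells at 20.1 (15.7 to 25.3), basal-like cells at 13.4 (12.3 to 14.6), granular-like cells at 11 (6.89 to 16.6) and suprabasal-like cells at 1.84. Among neighbours, the intervals of the first 2, of the 4 classes from keratinocytes with no class name to sebaceous-like cells, and of basal-like and granular-like cells overlap. Mmp14, the surface protease, was at 156 CPM (130 to 184) in fibroblast-like, 63.7 (36.4 to 103) in melanocyte-like, 49.7 (47.5 to 52.0) in basal-like, 38.5 (32.4 to 45.5) in sebaceous-like, 35.3 (32.4 to 38.3) in hair follicle-like, 34.2 (23.7 to 47.7) in Langerhans cells, 12.5 in keratinocytes with no class name, 12.3 in T cells, 9.49 in granular-like and 6.77 in suprabasal-like cells. The melanocyte-like interval overlaps those of basal-like, sebaceous-like, hair follicle-like and Langerhans cells, and the last 3 overlap each other, so their order is not resolved. The Langerhans interval also reaches that of basal-like cells. T cells serve below as background for other members. Timp2 in keratinocytes with no class name, Langerhans, sebaceous-like, basal-like, granular-like and suprabasal-like cells was not resolved above their level. Nor was Mmp14 in keratinocytes with no class name, granular-like and suprabasal-like cells. Melanocyte-like cells held 21797.9 CPM of keratinocyte markers beside 6901.14 of their own. The part of free RNA in their levels was not tested. Fibroblast-like cells were first at 1 week too, with 1077 CPM of Timp2 and 655 of Mmp14 in control.

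**Figure D2:**
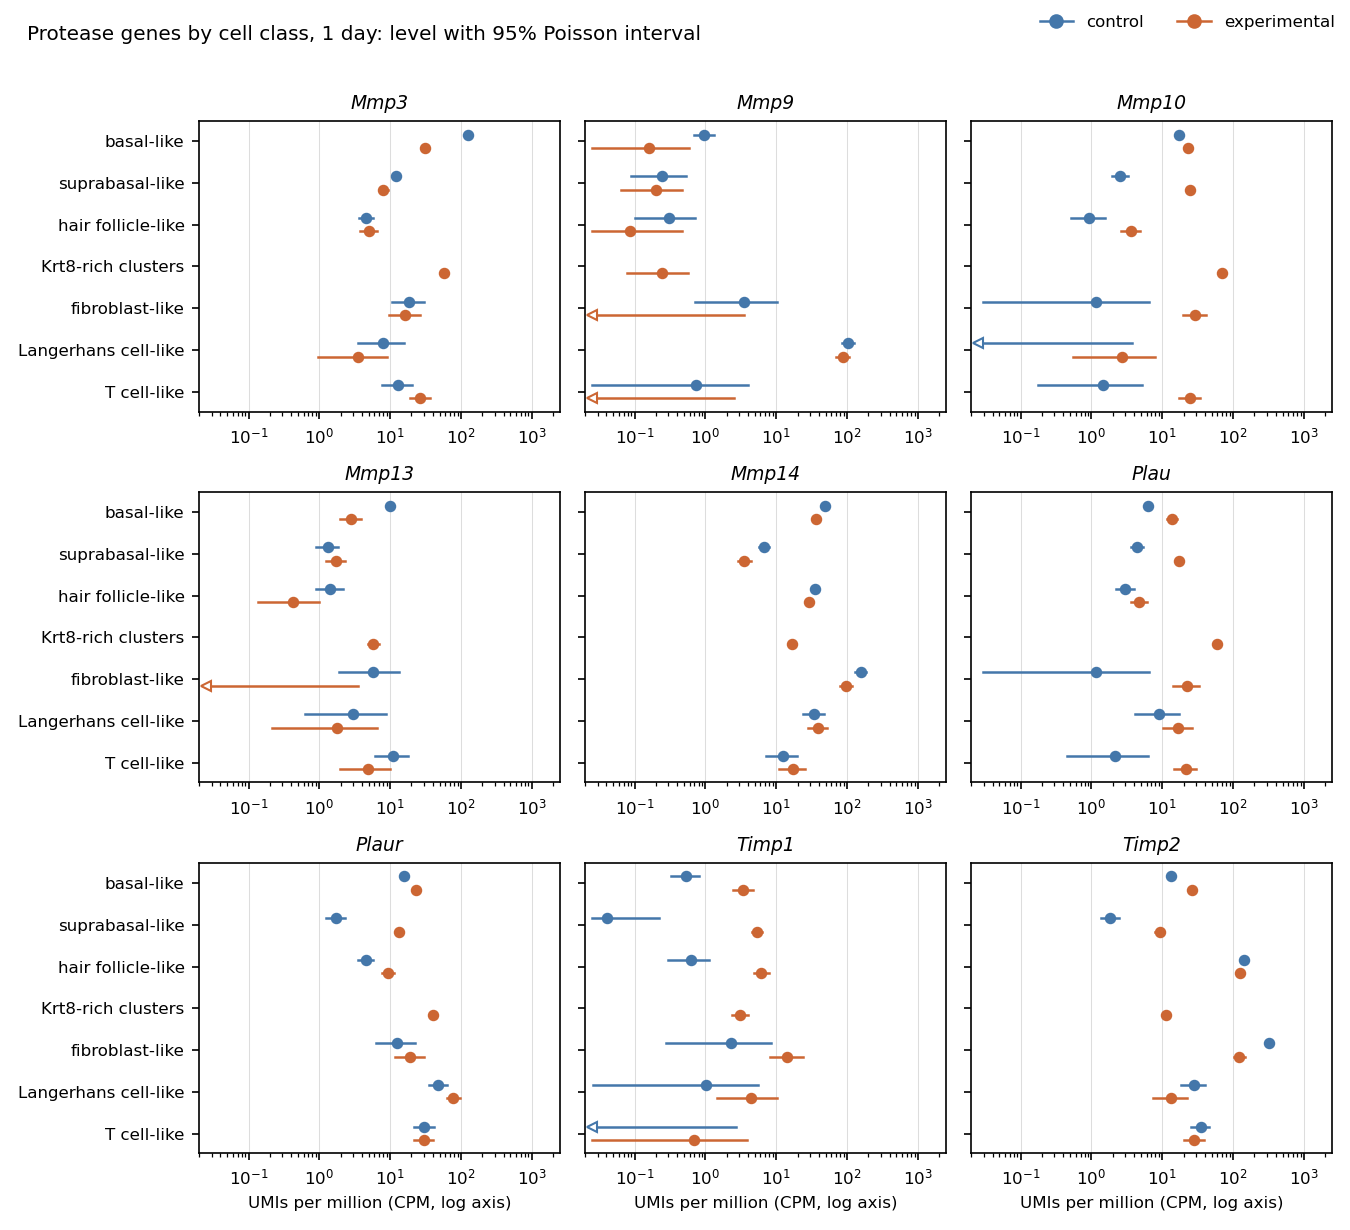
Level of each member at 1 day by class, in CPM on a log axis, with control and experimental points and 95% Poisson intervals. Open triangles mark 0 UMIs, and classes with under 100 cells in a library are not drawn; basal-like Mmp3 lies at 126 and 31.3 CPM and suprabasal-like Mmp10 at 2.57 and 24.8 CPM.

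The Krt8-high cells of the 1-day experimental library had Mmp10 and Plau at higher levels than the other keratinocytes, and also held Mmp3 and Plaur. Their levels were 70.1 CPM for Mmp10, 58.9 for Plau, 57.7 for Mmp3 and 40.6 for Plaur. Mmp14 was at 16.5, Timp2 at 11.2, Mmp13 at 5.8, Timp1 at 3.09 and Mmp9 at 0.242 CPM. Between the cells of the 3 hashtags in this library, whose meaning the labels do not give, Mmp3 ranged from 16.3 to 81.2 CPM and Mmp10 from 37.7 to 90.1. Mmp3 was thus at a level between those of control and experimental basal-like cells, whereas Mmp10 and Plau were above every keratinocyte class of either 1-day library. All 14 keratinocyte markers were detected in these cells, and the fibroblast markers summed to 9.43 CPM.

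The UMIs were unevenly spread over the Krt8-high cells. Plau was found in 879 cells, Mmp10 in 656, Plaur in 608 and Mmp3 in 409. The mean per positive cell was 2.92 UMIs for Mmp3, 2.21 for Mmp10, 1.39 for Plau and 1.38 for Plaur. Few cells with many UMIs thus made up Mmp3, with 117 cells at 3 or more, against 74 for Plau, which was spread over more cells. Of Krt8-high cells with Mmp10, 25.3% also had Plau against 15.1% of those without, and 15.1% had Mmp3 against 6.57%. Of those with Plau, 17.7% had Plaur against 10.0%. In control basal-like cells 43.0% of the 344 cells with Mmp10 had Mmp3, against 13.6% of the other 7489, at median depths of 5143.5 and 4257 UMIs. Taken from Mmp3, the order of the classes was the other way. Of cells with Mmp3, 24.2% had Mmp10 in the Krt8-high class and 12.7% among control basal-like cells. These shares are descriptions, and depth moves with them.

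To compare shares of positive cells at one depth, each cell was thinned to 1000 UMIs, which left out 436 of 19740 control keratinocytes and no experimental cell. The share with Mmp3 was 7.17% and 2.47% in control and experimental basal-like cells and 3.18% (2.73 to 3.68) in Krt8-high cells. The share with Mmp10 was 1.43% and 1.36% in basal-like, 0.184% and 2.03% in suprabasal-like and 5.17% (4.59 to 5.80) in Krt8-high cells, where it was 12.2% before thinning. For Plau it was 0.315% and 1.69% in suprabasal-like and 5.19% in Krt8-high cells, and 16.3% in the latter before thinning. Plaur was found in 3.33% of Krt8-high cells, and in 0.798% and 1.37% of the other keratinocytes.

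T cells, which should lack Mmp10, gave the background. At median depths of 1241.5 and 2819 UMIs before thinning, none of 558 control T cells and 2.00% of 401 experimental ones had an Mmp10 UMI. A floor of 3 counts would be 0.538% of the control ones. Plau was in 0.179% and 1.75%. Mmp3 was in 0.896% and 2.74% (1.38 to 4.86) of T cells. Its shares in experimental basal-like and Krt8-high cells are not resolved from the latter, and neither share was read as expression. The Mmp3 level in Krt8-high cells, 57.7 CPM (54.5 to 61.1), lay above that in experimental T cells, 26.8 (19.1 to 36.7). Experimental basal-like cells, at 31.3 CPM, lay within the T-cell interval. Those of the largest control basal-like cluster and of the cycling one, given above, were past it. Plaur was in 3.94% of control and 2.24% of experimental T cells and in 0.798% of control keratinocytes, so T cells gave no background for it. The experimental shares for Mmp10 and Plau in suprabasal-like cells lie close to those of T cells, and for Mmp10 the basal-like share is not above, so these shares were not read as expression. The Krt8-high shares of Mmp10 and Plau lie above. Timp1 was in none of the thinned T cells of either library (floors of 0.538% and 0.748%) and in 0.057% and 0.349% of keratinocytes. T-cell keratinocyte markers moved with this: they summed to 13345.6 CPM in control and 27648.5 CPM in experimental T cells.

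Krt8 itself, at 236 CPM in the experimental keratinocytes outside the Krt8-high clusters, allowed the members to be set against it. For each 100 Krt8 UMIs, Krt8-high cells held 4.21 Mmp10 UMIs, T cells 5.41 (3.75 to 7.56), hair follicle-like cells 3.85, basal-like cells 5.36 and granular-like cells 5.02. Suprabasal-like cells held 11.85, which is above these. Plau was at 3.54 in Krt8-high, 3.24 in basal-like, 4.65 in T, 5.01 in hair follicle-like and 8.36 in suprabasal-like cells, and at 16.67 in Langerhans cells. Timp1 was at 0.150 in T cells, 2.55 in suprabasal-like and 6.54 in hair follicle-like cells. The basal-like values pool 3 clusters, with Krt8 over both libraries at 438 CPM in the cycling one and 4.16 and 17.0 in the others. They therefore rest mainly on the Krt8 of the cycling cluster, and the other basal-like clusters were not set against Krt8 on their own.

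When the profile of the Krt8-high cells was taken out of the keratinocyte sum in proportion to Krt8, removing 14.2% of its UMIs, the Mmp10 log2 ratio was 0.15 in place of 1.17 and that of Plau 0.43 in place of 1.66. Neither was then past 2-fold. Timp1 was at 2.73, and Mmp3 and Mmp13 at -3.82 and -2.29. Krt8-high cells had less Timp1 and more Mmp3 and Mmp13 than this sum, by the levels given above. The step could therefore only move these ratios further in their own direction, and was no test of them. In hair follicle-like cells the same step asked for 47.1 Mmp10 UMIs where only 43 were held, so it took out too much and left none. It brought Mmp3 to -1.33 and Plau to -1.0, both then past 2-fold lower. Plaur was at 0.72, within 2-fold, and Timp1 at 3.37. Free RNA from Krt8-high cells and low expression in the other keratinocytes cannot be told apart by this step, which assumes that all Krt8 outside those cells is foreign.

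**Figure D3:**
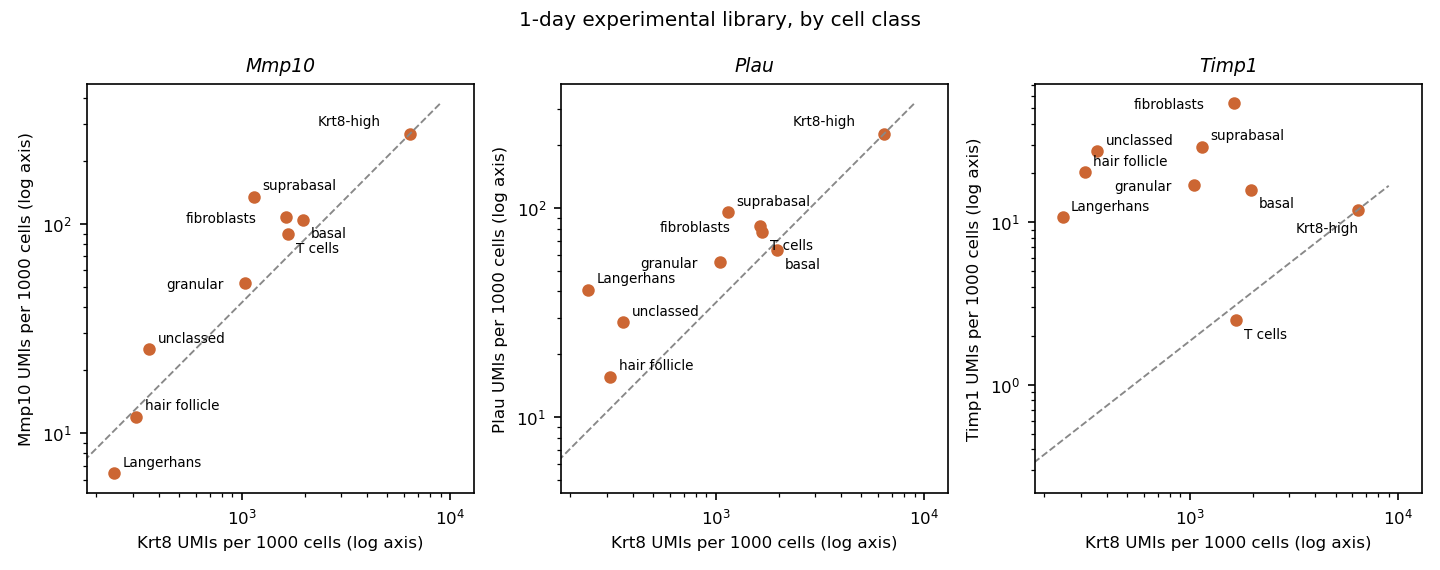
UMIs of Mmp10, Plau and Timp1 per 1000 cells against Krt8 UMIs per 1000 cells, for the classes of the 1-day experimental library. The dashed line is the ratio in Krt8-high cells; T cells lie near it for Mmp10 (5.41 UMIs per 100 Krt8 UMIs against 4.21), and hair follicle-like cells lie above it for Timp1 (6.54 UMIs per 100 Krt8 UMIs). Both axes are log axes.

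At 1 week, Mmp3 was lower and Mmp10, Plaur and Timp1 were higher in experimental keratinocytes, 3 higher and 1 lower of 7 counted members, against 9.73% and 6.57% of 14673 genes. Timp1 differed by far more than the other members. The sums cover 7699 control and 3701 experimental cells, in which the basal-like and suprabasal-like classes had 23 and 9 experimental cells, so that class ratios there were not read. Over all passing cells the same 3 members were higher and Mmp3 lower, of 8 counted, against 10% and 5.27% of genes. These sums also hold the clusters of low UMI count, 11231 control and 11298 experimental barcodes, which belong to no named class. In keratinocytes the median log2 ratio was 0.88 for the members and 0.07 for the genes.

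Timp1 had 12 UMIs (0.218 CPM) in control and 1113 UMIs (30.1 CPM) in experimental keratinocytes, a log2 ratio of 7.11 (6.30 to 8.06). Mmp3 had 770 and 70 UMIs (14 and 1.89 CPM), a log2 ratio of -2.89 (-3.26 to -2.53), and 659 of the 770 lay in basal-like cells, of which the experimental library had 23. Mmp10 had 48 and 101 UMIs, a log2 ratio of 1.65 (1.14 to 2.17), which turned to -0.27 at Leiden resolution 2 and to -2.68 with clusters of at least 500 CPM of Krt8 kept apart. Plaur was at 7.7 and 18.4 CPM, a log2 ratio of 1.26 (1.08 to 1.43), and Plau at 8.59 and 15.9, a log2 ratio of 0.88 (0.71 to 1.06). At this time point the receptor was past 2-fold and the ligand was not. Timp2 (41.8 and 64.9 CPM) and Mmp14 (53.2 and 38.6 CPM) stayed within 2-fold. Mmp9 and Mmp13 were too rare to count, at 16 and 2 and at 5 and 1 UMIs.

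By class, the 2179 control basal-like cells had 40.9 CPM of Mmp3, 88.7 of Mmp14, 17.3 of Plaur and 11.8 of Plau and no Timp1 UMI. Keratinocytes with no class name, 2006 and 2593, had 5 of 7 counted members higher and 1 lower, against 8.35% and 11.8% of genes. Different clusters filled this class: 3 of its clusters, with 768, 368 and 65 experimental cells, held 3, 0 and 0 control cells, and 2 others with 118 and 99 control cells held 7 and 0 experimental ones. Mmp10 (4 and 98 UMIs), Timp1 (7 and 166), Mmp3 (3 and 62), Plau (56 and 554) and Plaur (65 and 633) were higher, and Timp2 was at 139 and 64.5 CPM. The class includes the Krt24 and Lgr5 cluster described below, with 948 and 836 cells, in which Timp2 was within 2-fold. The part of cell mix in the class value was not tested. In 42 and 163 granular-like cells Timp1 had 0 and 75 UMIs, at least 2.79 on the log2 scale, 1 of 2 counted members, where 5.75% of genes were higher and 13.3% lower. In 132 and 361 sebaceous-like cells none of the 2 counted members, Mmp14 and Timp2, was past 2-fold, against 9.53% and 5.77% of genes.

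Outside the clusters of low UMI count, cells with much Krt8 formed 3 clusters of at least 500 CPM, a limit chosen after the values were seen, with 3 control and 843 experimental cells. They are called Krt8-rich here because only 10 of them lay in a cluster past 1000 CPM, and the others belong to the keratinocytes with no class name. A low-UMI cluster of 205 experimental cells, with Krt8 at 2403 CPM, is not among them. The Krt8-rich cells held 98 Mmp10 UMIs, 472 of Plau, 425 of Plaur and 54 of Mmp3, where the other 2868 experimental keratinocytes held 3, 118, 257 and 16. For Timp1 it was the reverse, with 78 UMIs in the Krt8-rich cells and 1035 in the others. Without them, Mmp10 was lower in experimental keratinocytes (48 and 3 UMIs, log2 ratio -2.68), Plau was at -0.69 and Plaur at 0.59, and Timp1 stayed higher at 7.75. Timp2 was then past 2-fold, at 1.32. Yet it was within 2-fold in the Krt24 and Lgr5 cluster described below, which held 948 control and 836 experimental cells of these sums. The part of cell mix in the Timp2 value was not tested. The largest Krt8-rich cluster, of 768 experimental cells, had 31.3 CPM of Plau, 27.8 of Plaur, 6.55 of Mmp10, 5.19 of Timp1 and 3.69 of Mmp3. Of Krt8-rich cells with Plau, 36.6% had Plaur, against 17.0% of those without.

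The Timp1 of 1-week experimental keratinocytes came from few cells. Hair follicle-like cells had 0 UMIs in 477 control cells and 864 UMIs (169 CPM) in 552 experimental cells, at least 7.50 on the log2 scale when 3 counts are taken as the floor. These 864 UMIs lay in 14 cells, of which the top 3 held 584, 196 and 39. Those 3 cells had 43619, 36402 and 40178 UMIs in all, with 2406, 1658 and 1196 from keratinocyte markers and 0, 1 and 0 from fibroblast markers. They also held the kallikrein proteases Klk6, at 518, 216 and 203 UMIs, and Klk10, at 445, 248 and 64 UMIs. Without the top 2 cells, keratinocytes had 333 UMIs against 9 and a log2 ratio of 5.78, and hair follicle-like cells 84 UMIs against 0, at least 4.16. Timp1 thus stayed higher without them.

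**Figure D4:**
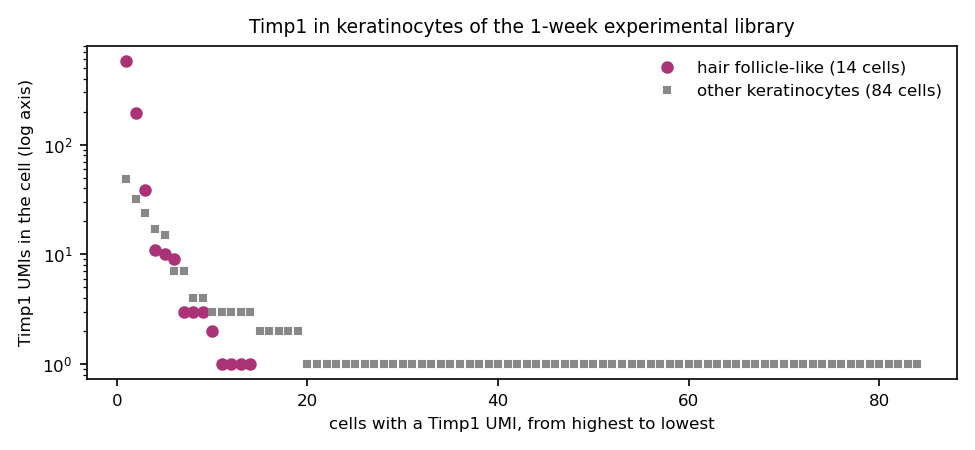
Timp1 UMIs in each Timp1-positive keratinocyte of the 1-week experimental library, on a log axis, with cells ordered from highest to lowest within the 14 hair follicle-like cells (circles) and within the 84 other keratinocytes (squares). The top hair follicle-like cells lie at 584 and 196 UMIs, above every other cell.

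Another follicle population could be compared in like numbers of cells. In the 1-week cluster led by Krt24 and Lgr5, with 948 control and 836 experimental cells, Mmp14 was at 111 and 110 CPM and Timp2 at 292 and 275. Plaur there was at 2.69 and 12.3 CPM (log2 ratio 2.19), and Timp1 had 2 and 38 UMIs (0.489 and 9.18 CPM, log2 ratio 4.23). Hair follicle-like cells had 1 and 34 Plaur UMIs (0.311 and 6.66 CPM, log2 ratio 4.42), and without doublet removal the ratio was 1.10. In that class 2 of 5 counted members were higher and none lower, against 8.78% and 2.12% of genes. In the clusters with these bulge genes at both time points, Timp1 was thus past 2-fold while Mmp14 and Timp2 were not. No background like that of T cells at 1 day was set at 1 week. In both 1-week libraries the low-UMI clusters, described below, had more CPM of Timp1 and Plaur than the Krt24 and Lgr5 cluster. Their Plaur was also above that of hair follicle-like cells. The part of free RNA in the 1-week Timp1 and Plaur values was not tested.

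**Figure D5:**
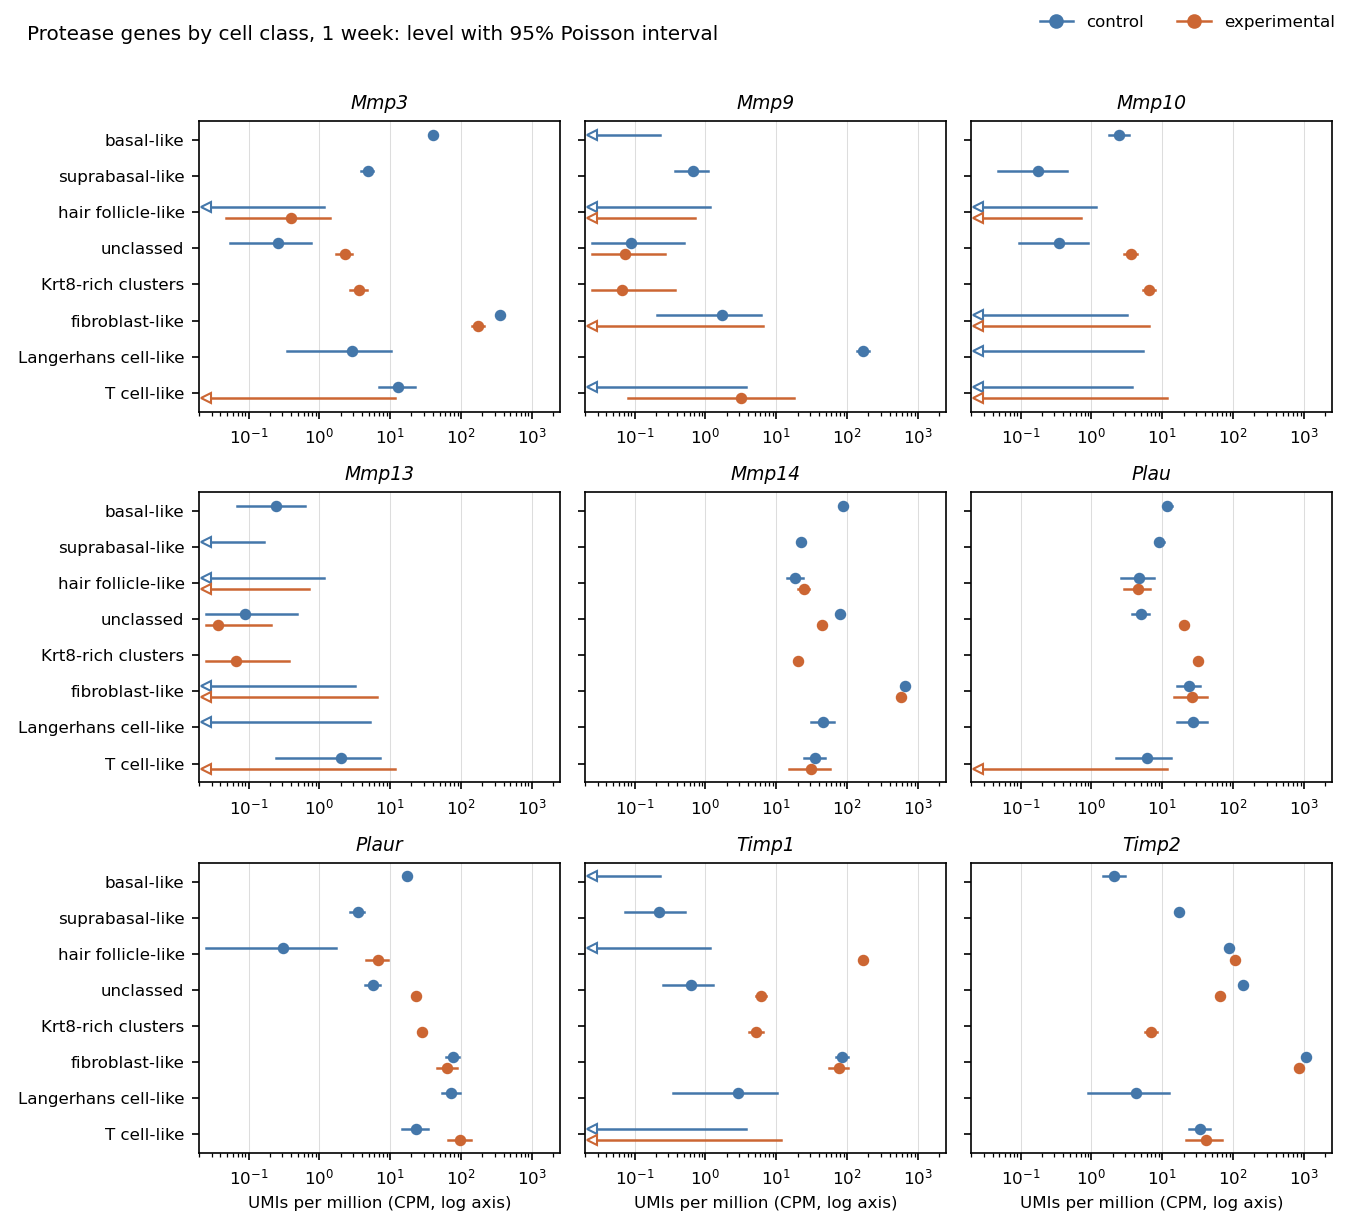
Level of each member at 1 week by class, in CPM on a log axis, with control and experimental points and 95% Poisson intervals. Open triangles mark 0 UMIs, classes with under 100 cells in a library are not drawn, and fibroblast-like Mmp3 lies at 361 and 176 CPM.

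Stroma at 1 day was thinly sampled, with 471 and 278 fibroblast-like cells out of 493 and 295 stromal cells. There Mmp10 and Plau were higher and Timp2 lower, 2 and 1 of 6 counted members against 10.3% and 14.7% of genes. Timp2 had 316 and 149 UMIs (338 and 137 CPM), a log2 ratio of -1.30 (-1.60 to -1.02). Mmp14 was at 144 and 93.6 CPM, within 2-fold. Mmp10 had 1 and 31 UMIs and Plau 1 and 25. T cells of the experimental library, used above as background, also held UMIs of both genes, so neither was read as expression in stroma. For each 100 Krt8 UMIs the fibroblast-like cells held 6.62 Mmp10 UMIs, beside 4.21 in Krt8-high cells, and keratinocyte markers in them summed to 11391.6 CPM in control and 28200.9 in experimental cells. With the Krt8-high profile taken out, 11.6 Mmp10 and 8.71 Plau UMIs were left and Timp2 was at -0.91, within 2-fold. Mmp10 and Plau were then still at log2 ratios of 3.74 and 3.32 but under the minimum of 20 UMIs, so no member was counted as higher or lower. Fibroblast markers summed to 3170.81 and 2330.46 CPM, and 7 of 8 were found in at least 10% of the cells of both libraries.

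At 1 week, stroma (424 and 256 cells) had 1 of 6 counted members lower, Mmp3, and none higher, against 4.23% and 4.99% of genes. Mmp3 had 422 and 101 UMIs, all in the fibroblast-like cells, at 361 and 176 CPM there, a log2 ratio of -1.03 (-1.36 to -0.72). It was the one lower member of 6 in fibroblast-like cells too, where 4.91% of genes were higher and 4.44% lower. Fibroblast markers in these cells summed to 24346 and 13545.8 CPM, and their part in the Mmp3 value was not tested. In 1 control cell lay 133 of the 422 UMIs, and without the top cell of each library the ratio was -0.95 in fibroblast-like cells, within 2-fold, and -1.13 in stroma. Timp2 (1077 and 857 CPM), Mmp14 (655 and 581), Timp1 (85.5 and 76.8), Plaur (77 and 64.6) and Plau (23.9 and 26.2) in fibroblast-like cells stayed within 2-fold. With low-UMI clusters that had stromal markers counted as stroma, 1104 control and 1210 experimental cells, 4 of 6 members were lower and none higher, against 4.68% and 7.55% of genes. Mmp3 was then at -2.33, Mmp14 at -1.16, Timp2 at -1.11 and Timp1 at -1.01. Of all Timp1 UMIs, stroma held 57.1% in control (109 of 191, with 60 more in low-UMI clusters) and 3.24% in experimental cells, in which hair follicle-like cells held 57.2% and low-UMI clusters 21.4%. Mmp10 and Mmp13 had no UMI in stroma of either 1-week library. Plau had 34 and 3 UMIs in 61 and 32 endothelial-like cells, where keratinocyte markers summed to 18955 and 4637 CPM, and 29 and 14 UMIs in 32 and 40 smooth muscle or pericyte-like cells. Timp2 in these cells was at 539 and 643 CPM and at 141 and 238 CPM.

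Of all Mmp9 UMIs of a library, Langerhans cells held 103 of 202 in control and 98 of 130 in experimental cells at 1 day (103 and 87.2 CPM), within 2-fold, and 119 of 173 and 70 of 109 at 1 week (170 and 81.8 CPM), a log2 ratio of -1.05 (-1.5 to -0.62). Thinned to 1000 UMIs, 9.6% and 8.8% of Langerhans cells had Mmp9 at 1 day and 21.9% and 13.9% at 1 week. At 1 week Plau was at 27.1 and 80.7 CPM in the 119 and 79 Langerhans cells, Mmp14 at 45.7 and 92.4 and Timp2 at 4.28 and 40.9. Fibroblast markers in the same cells summed to 10.0 and 334 CPM, with 3 and none of the 8 at 0, and Langerhans markers to 80634 and 56995 CPM, and their part in these values was not tested. Plaur in T cells at 1 week was at 23.1 and 97.7 CPM, where keratinocyte markers summed to 24609.5 and 9785.96 CPM and T-cell markers to 8580 and 10612 CPM.

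Related genes, in lists chosen with earlier results of these data known, gave the setting in keratinocytes. Over all genes counted there, 7.52% were higher and 2.82% lower at 1 day and 9.73% and 6.57% at 1 week, so a single gene in a list of this size is near that background. Of 8 counted other metalloproteases at 1 day and 7 at 1 week, 1 was lower at each time, Mmp28, at 2.82 and 1.17 CPM and at 7.48 and 1.89 CPM. Of ADAM and ADAMTS proteases 12 were counted at each time, with 3 higher and 1 lower at the earlier and 3 higher and 2 lower at the later one. The sheddase Adam8 was lower both times, at 44.3 and 9.97 and at 40.9 and 6.64 CPM, Adamts2 was higher (log2 ratio 2.43 and 1.02), and the proteoglycanase Adamts5 was higher at 1 week (1.96). Among other inhibitors 0 of 3 and 1 of 4 were past 2-fold, the latter Spock2 (4.52 and 13.4 CPM).

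Of 11 other plasminogen system genes, the earlier time had 3 higher and none lower, and the later one 2 higher and 4 lower. For this and the lists below, all genes stood at 7.52% higher and 2.82% lower at 1 day and 9.73% and 6.57% at 1 week. Tissue plasminogen activator Plat was higher both times, at 3.8 and 8.11 and at 5.63 and 16.1 CPM, as was thrombomodulin (Thbd), at 1.33 and 3.5 and at 3.96 and 29.9 CPM. Serpine2, a protease inhibitor, was higher at 1 day (log2 ratio 1.16) and lower at 1 week (-1.09). Tissue factor F3 (152 and 55 CPM) and the intracellular and secreted urokinase inhibitor Serpinb2 (7018 and 2578 CPM) were lower at 1 week. Among cell-surface proteases and their inhibitors 3 of 10 and 3 of 9 were higher and none lower, among them Dpp4 (log2 ratio 1.65 and 2.53) and Tmprss11e (1.73 and 3.14). Of 17 matrix and receptor partners, the earlier time had 2 higher and 3 lower, and the later one 4 lower and none higher. The collagen receptor subunit Itga2 (98.7 and 37, then 58.6 and 11.5 CPM), anchoring fibril collagen Col7a1 (log2 ratio -1.23 and -1.53) and laminin chain Lamb3 (-1.19 and -1.22) were lower both times. Lamb3 is one of the basal markers used to name clusters. Itga2 and Adam8 were among the leading genes of the basal-like cluster with most control cells at 1 week. Lower sums of these genes cannot be told apart from fewer basal-like cells.

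Over 21 class sums at 1 day, which share 2 libraries, the gene most like Mmp9 in log2 level was Nlrp3 (Pearson r = 0.98), that most like Mmp14 Sav1 (0.94), that most like Timp2 Gas1 (0.93), that most like Mmp10 Ttc39a (0.91), that most like Plau Ist1 (0.91) and that most like Plaur Srsf3 (0.90). Lower values were found for Mmp13 with Cysltr1 (0.88), Mmp3 with Tent5a (0.83) and Timp1 with Pik3c2a (0.78). Over 23 sums at 1 week they were Csf2rb2 for Mmp9 (0.99), Ppic for Mmp14 (0.92), Angptl2 for Timp2 (0.92), Dusp3 for Plau (0.87), Kdelr3 for Timp1 (0.85), Pip4k2a for Plaur (0.81) and Efemp1 for Mmp3 (0.77). None of the 7 members measured at both times had the same closest gene, though Sav1, closest to Mmp14 at 1 day, came next after Ppic at 1 week (0.91).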

How the data were processed

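Single-cell RNA libraries (10x Chromium, 3′ v3.1 at 1 day and 5′ v1.1 at 1 week, per the labels' protocols) were analysed from the deposited UMI counts per gene and barcode, made with Cell Ranger 5.0.1 against mm10 per the submitters' processing notes. The 9 members and the lists of related genes were chosen with earlier results of these data known. Barcodes passed with 500 UMIs or more, 300 genes or more and no more than 15% of UMIs from mitochondrial genes, and the highest Scrublet doublet scores were removed, at 0.8% per 1000 barcodes. For each time point, both libraries were clustered together (scanpy 1.11.5, 2000 variable genes without members, 30 principal components, 15 neighbours, Leiden resolution 1), and clusters were named from fixed markers. Low-UMI clusters at 1 week, close to the profile of the poorest barcodes, were left out of the named classes and counted only among all passing cells. UMIs were summed per class and library and given as CPM, with exact Poisson intervals, exact conditional binomial intervals for ratios and Clopper-Pearson intervals for shares. All 9 members are named, and of each related list at most the 3 highest and 3 lowest past 2-fold. The ratio step was tested on simulated sums with counting error alone, where 106 of 14528 unchanged genes were called at 1 day and 131 of 14468 at 1 week. Differences between cells, animals or libraries were not simulated, so these are not false-call rates of the calls given here. As deposited, libraries held 88903603 to 179736563 UMIs in control and 68191870 and 144323031 in experimental cells, and depth sets the counting error and moves shares of positive cells. Alternatives covered scaling (TMM, edgeR 4.0.16), filters, doublets, clustering, fold and depth. Hashtag counts in the 1-day libraries were used only to give levels by hashtag.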

Additional observations from a re-analysis of the deposited data

Results flagged for a closer look

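The low-UMI clusters of the 1-week libraries, 11231 control and 11298 experimental barcodes, entered only the sums over all passing cells, the library totals and the settings that counted some of them with keratinocytes or stroma. In them the log2 ratio of Mmp10 was 4.16, with 2.69 CPM in the experimental library, that of Timp1 1.94 (4.53 and 17.4 CPM), that of Plaur 1.12 (16.5 and 36.0 CPM) and that of Mmp3 -2.26 (3.82 CPM in the experimental library). Krt8 was at 0.982 and 256 CPM in these clusters, and its part in the member values was not tested.

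Hashtag counts of the 1-day experimental library split its Krt8-high cells into 615, 768 and 882 cells with 1 hashtag and 3112 with none assigned. The labels do not say what the hashtags mark, so the cells under them are not replicates of a group. The highest Mmp3 level over the lowest was 4.99, from 81.2, 16.3 and 78.5 CPM. It was 2.39 for Mmp10 (90.1, 37.7 and 84.3 CPM), 2.07 for Plau (46.5, 45.8 and 94.7 CPM) and 2.02 for Timp2 (13.4, 6.63 and 11.6 CPM). These 4 genes were past 2-fold with at least 20 UMIs under each hashtag, and the one with 768 cells was lowest for all of them, close to the one with 615 cells for Plau. Mmp14 and Plaur also had 20 UMIs or more under each but were within 2-fold. Mmp14 was at 15.3, 14.5 and 25.3 CPM, and Plaur at 32.8, 38.0 and 60.4 CPM, lowest under the hashtag with 615 cells. With fewer UMIs, Timp1 was at 6.70, 3.62 and 0.291 CPM (18, 12 and 1 UMIs) and Mmp13 at 7.82, 3.62 and 10.2 CPM, so that for Timp1 the hashtag with 882 cells was lowest. In keratinocytes outside the Krt8-high clusters, Timp1 was at 6.93, 3.77 and 1.81 CPM in the same order, and at 0.338, 1.34 and 1.2 CPM in the 3 hashtags of the control library.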

How the results depend on the processing

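No paired analysis was possible because each group is 1 library. Of 86 counts of members past 2-fold recomputed under the alternatives, 79 stayed within 1.5 times the count given and 7 did not. Higher and lower members were counted together for this, so a count could stay while its members or their directions changed. Of 231 log2 ratios of single members in keratinocytes 48 moved and 2, past 2-fold as reported, reversed, and of 72 shares of keratinocytes 61 moved, when thinned to 2000 UMIs or not thinned. Ratios within 2-fold changed sign in 6 further cases (Mmp9 and Timp2 at 1 day, Plau at 1 week). A fold of 1.5 gave 8 members in keratinocytes at 1 day, 5 in stroma at 1 day and 2 in stroma at 1 week, where 22.6%, 45.9% and 26.4% of genes passed it. Taking out the Krt8-high profile, chosen after seeing the data, left 3 members in keratinocytes (Timp1 higher, Mmp3 and Mmp13 lower) and 0 in stroma at 1 day, where Mmp10 and Plau stayed at log2 ratios of 3.74 and 3.32 but fell under the UMI minimum. The share of all genes past 2-fold was not computed for this setting, so these counts have no background. Leiden resolution 2 gave 2 in keratinocytes at 1 week (Timp1 and Mmp3), and counting low-UMI clusters with stromal markers, also chosen after seeing the data, gave 4 in stroma at 1 week (Mmp3, Mmp14, Timp2 and Timp1), all lower. For Leiden resolution 2 no share of all genes was computed either. The Mmp10 log2 ratio in 1-week keratinocytes turned to -0.27 at Leiden resolution 2 and to -2.68 with a Krt8 limit of 500 CPM. With that limit Plaur was at 0.59, no longer past 2-fold, and Timp2 at 1.32, newly past it. Timp1 in keratinocytes stayed past 2-fold in the same direction in 13 of 13 alternatives at 1 day and 14 of 14 at 1 week, and Mmp3 in 12 of 13 and 14 of 14. At 1 day Plau did so in 12 of 13, Mmp10 in 11 of 13 and Mmp13 in 11 of 13. Taking out the Krt8-high profile, among the 13, could only move Timp1, Mmp3 and Mmp13 further in their own direction. No alternative held the numbers of cells per class fixed. At 1 week, basal-like cells held 659 of the 770 control Mmp3 UMIs of keratinocytes and numbered 2179 and 23. The Mmp3 count there cannot tell level from cell numbers. Depth limits Mmp9 and Mmp13, and the 23 basal-like and 9 suprabasal-like experimental cells at 1 week gave no usable class ratios.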
